A study of Arabidopsis thaliana with 12 samples.

Results

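AT2G30830, AT2G38240 and AT3G13610 are 3 Arabidopsis thaliana genes that encode 2-oxoglutarate and iron dependent dioxygenases. They were chosen by name from 13355 genes that had a probe set of their own on the array, because their signals differed strongly between groups of these same samples. Their levels and fold changes are therefore given as a description with standard errors and without tests. Each was read by 1 probe set.

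Total RNA of 12 samples was hybridised to Affymetrix arrays, 1 array per sample. The samples formed 4 groups of 3 replicates. Col-0, the common laboratory strain, was sampled as a control and following dehydration for 2 h, and siz1-3 was sampled in the same 2 ways. siz1-3 is a mutant allele of SIZ1, whose product is an E3 ligase for SUMO, a small protein that cells join to target proteins to modify them. The labels gave an age of 3 weeks, written as 21 days for Col-0 control replicate 1, and named no tissue, so whole plants, shoots and roots could not be told apart from the labels. The labels did not say whether plants were grown in separate batches for each replicate, so a p-value below reflects no more than the scatter among these arrays, part of which may be technical.

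Dioxygenases of this family use iron, oxygen and 2-oxoglutarate to hydroxylate or otherwise oxidise small molecules, and plants use them widely to make and to inactivate hormones and defence compounds. AT2G38240 is JASMONATE-INDUCED OXYGENASE 4 (JOX4), one of a small group of enzymes that hydroxylate jasmonic acid and so lower the amount available for the active hormone jasmonoyl-isoleucine. AT3G13610 is F6'H1, feruloyl-CoA 6'-hydroxylase, which commits phenylpropanoid intermediates to scopoletin and related coumarins. These coumarins are secreted by iron-starved roots and also accumulate in leaves under attack. AT2G30830 belongs to a subfamily whose sequences resemble 1-aminocyclopropane-1-carboxylate oxidase, and no substrate is given for it here. By its title, the study addressed how siz1-3 and Col-0 respond to drought across the transcriptome. All 3 genes are described here in both its dehydration and its genotype comparisons.

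All arrays shared the same trimmed mean signal, and their medians lay between 65.5 and 88.2. The arrays of a group correlated at r between 0.980 and 0.991 across probe sets. The ratio of the actin control probe sets at the 3' and the 5' end lay between 8.29 and 20.2 in the 12 arrays, and the groups overlapped in it. Its mean was 11.8 in Col-0 control and 16.3 in dehydrated Col-0, and 15 and 16.9 in siz1-3 control and dehydrated. For the GAPDH control probe sets the ratio lay between 1.08 and 1.74. The brighter of the SIZ1 (AT5G60410) probe sets gave 450, 428 and 286 in Col-0 control and 160, 172 and 177 in siz1-3 control, which is −1.10 ± 0.17 (SE) on the log2 scale (limma adjusted p = 0.000497). It gave 392, 465 and 360 in dehydrated Col-0 and 81.5, 101 and 101 in dehydrated siz1-3, which is −1.93 ± 0.17 (adjusted p = 3.44e-06). A second, dimmer probe set of SIZ1 had the opposite sign, with log2 fold changes of 1.64 ± 0.31 in control (adjusted p = 0.0027) and 1.67 ± 0.31 after dehydration (adjusted p = 0.00143). The position of either probe set relative to the siz1-3 mutation was not known here, so neither probe set checks the labels by itself.

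The 3 genes followed 3 different patterns over the 4 groups. AT2G30830 was high after dehydration in both genotypes and higher in Col-0 than in siz1-3. AT2G38240 was high after dehydration in both genotypes, at nearly the same signal. AT3G13610 was low in both groups of Col-0, higher in siz1-3 control and highest in dehydrated siz1-3.

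**Figure D1:**
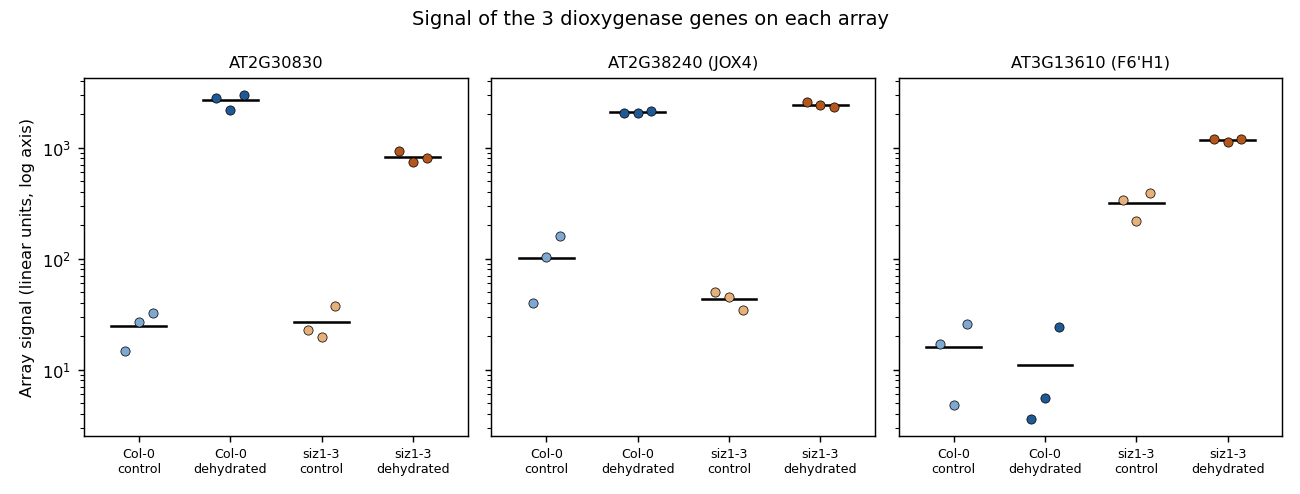
Array signal of AT2G30830, AT2G38240 and AT3G13610 in linear units on a log axis, by group; points are the 3 arrays of each group and bars are group means. AT2G30830 reached 2197 to 3001 in dehydrated Col-0 against 744 to 928 in dehydrated siz1-3, AT2G38240 lay at 2035 or above in every dehydrated array, and AT3G13610 stayed at 25.7 or below in all Col-0 arrays.

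AT2G30830 read 14.7, 26.6 and 32.2 in Col-0 control against 2783, 2197 and 3001 once Col-0 was dehydrated. The siz1-3 controls read 22.8, 19.6 and 37.4, and the dehydrated siz1-3 arrays 928, 744 and 802. The control groups overlapped, and every dehydrated siz1-3 array lay between the control arrays and the dehydrated Col-0 arrays. The ratio of group means between dehydrated and control plants was 108 in Col-0 and 31.0 in siz1-3. On the log2(signal + 16) scale, which understates the change of low signals, the differences were 6.06 ± 0.20 (SE) and 4.32 ± 0.20. These ranked 2 and 75 from the highest among 22746 probe sets. The genotypes differed by 0.07 ± 0.20 in control and by −1.66 ± 0.20 after dehydration, where the mean of Col-0 was 3.23 times that of siz1-3. The dehydration response of siz1-3 minus that of Col-0 was −1.74 ± 0.28. Because no detection calls were at hand, a control signal of this size could not be told from background, so the ratios over control depend on a low denominator.

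By gene identifier, 15 genes were listed as relatives of AT2G30830, and no sequence similarity was measured. Of these, 14 had a probe set of their own and 3 stayed under a mean of 32 in every group. A probe set was called when its limma p, adjusted by the Benjamini-Hochberg method over all 22746 probe sets, was below 0.05. After dehydration in Col-0, 4 of the 14 relatives rose and 6 fell, where 13.5% of all probe sets were called higher and 23.5% lower. In siz1-3, 5 rose and 5 fell, where the background was 15.3% higher and 31.8% lower. The median log2 fold change of the relatives was −0.17 in Col-0 and 0.14 in siz1-3, beside −0.10 and −0.16 over all probe sets. With array medians subtracted, 5 rose and 6 fell in Col-0 and 7 rose and 3 fell in siz1-3, while the calls over all probe sets became 4993 higher and 3506 lower in Col-0 and 6699 and 4107 in siz1-3. Relatives of AT2G30830 thus moved in both directions under both scalings.

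AT1G06620 rose from 46.8, 46.6 and 50.3 in Col-0 control to 608, 628 and 682 after dehydration, and from 33.6, 39.7 and 33.0 to 638, 665 and 668 in siz1-3. Its log2 fold changes were 3.36 ± 0.10 (adjusted p = 7.08e-10) and 3.71 ± 0.10 (adjusted p = 2.85e-10), and the dehydrated groups overlapped. AT1G06640 rose from 708, 927 and 827 to 4049, 4389 and 4311 in Col-0 and from 535, 697 and 658 to 2137, 2085 and 2046 in siz1-3. Its log2 fold changes were 2.36 ± 0.13 (adjusted p = 2.72e-08) and 1.71 ± 0.13 (adjusted p = 3.28e-07). Like AT2G30830, it was lower in dehydrated siz1-3 than in dehydrated Col-0, by −1.02 ± 0.13 on the log2 scale (adjusted p = 7.93e-05). 2A6 (AT1G03410) of the same subfamily fell in both genotypes, by 2.09 and 2.21 on the log2 scale (adjusted p = 7.8e-08 and 3.84e-08). It was also lower in siz1-3 than in Col-0, by −0.71 ± 0.13 in control (adjusted p = 0.00215) and −0.82 ± 0.13 after dehydration (adjusted p = 0.000427). A dimmer probe set of 2A6 was not called in any comparison and gave 0.22 ± 0.18 in Col-0 (adjusted p = 0.375) and 0.39 ± 0.18 in siz1-3 (adjusted p = 0.0907), so the probe sets of this gene disagreed.

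Between genotypes, 4 of the 14 relatives were higher and 1 lower in siz1-3 control, where 8.9% of all probe sets were called higher and 8.49% lower. After dehydration 6 were higher and 2 lower, where the background was 12.4% higher and 19.1% lower. The log2 fold change by dehydration was higher, in the signed sense, in siz1-3 than in Col-0 for 3 relatives and lower for 1, where 3.84% of all probe sets were called higher and 4.96% lower. Leaving out any 1 array gave 2 to 3 and 0 to 1 in that comparison. In the control comparison, 2 relatives were higher in siz1-3 without Col-0 control replicate 2 or siz1-3 control replicate 2, and 2 were higher and 2 lower with log2(signal + 1) and with signals below 32 set to 32. The relative with the lower value in siz1-3 was AT1G06640, and the 3 with the higher value were AT5G59540, AT5G43450 and AT5G43440. Of these, AT5G59540 had the largest difference. It fell from 1023, 1046 and 928 to 474, 491 and 487 in Col-0, by 1.02 on the log2 scale (adjusted p = 5.9e-06), and rose from 1554, 1382 and 1410 to 1931, 2112 and 2170 in siz1-3, by 0.51 ± 0.10 (adjusted p = 0.0013). The difference of its responses was 1.53 ± 0.15 (adjusted p = 0.00014), opposite in sign to that of AT2G30830. For AT5G43450, named like AT5G43440 after its values were seen, the fold changes were 0.18 in Col-0 and 1.05 in siz1-3, a difference of 0.87 ± 0.19 (adjusted p = 0.0141, and 0.004 to 0.043 over the alternatives). AT5G43440 fell in both genotypes, by 1.65 in Col-0 and by 0.94 in siz1-3, so its higher value in siz1-3 was a smaller fall. Its difference was 0.71 ± 0.19 (adjusted p = 0.0409, and 0.0155 to 0.0955 over the alternatives).

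AT2G30840 is the gene next to AT2G30830 in the TAIR10.1 annotation and encodes another member of the subfamily. Its signal was low, with 7.76, 28.1 and 26.3 in Col-0 control, 35.7, 32.5 and 62.7 in dehydrated Col-0, 42.5, 52.5 and 51.6 in siz1-3 control and 81.9, 98.0 and 61.3 in dehydrated siz1-3. The highest array of AT2G30840 was a dehydrated siz1-3 array, whereas that of AT2G30830 was a dehydrated Col-0 array. AT2G30840 was higher in siz1-3 than in Col-0 by 0.87 ± 0.25 in control (adjusted p = 0.0293, called in 12 of 18 alternatives). After dehydration it was higher in siz1-3 by 0.71 ± 0.25 (adjusted p = 0.0465, called in 10 of 18), opposite in sign to AT2G30830. Its log2 fold change by dehydration was 0.72 ± 0.25 in Col-0 (adjusted p = 0.038, and 0.00975 to 0.343 over the alternatives) and 0.56 ± 0.25 in siz1-3 (adjusted p = 0.0865). The call in Col-0 was lost without Col-0 control replicate 1 (adjusted p = 0.161), without dehydrated Col-0 replicate 3 (adjusted p = 0.153) and without dehydrated siz1-3 replicate 1 (adjusted p = 0.0506). Removing Col-0 control replicate 1 brought the siz1-3 comparison to an adjusted p of 0.034. AT2G30820, the neighbour on the other side, had log2 fold changes of −0.32 ± 0.26 (adjusted p = 0.386) in Col-0 and −0.72 ± 0.26 in siz1-3 (adjusted p = 0.0358, and 0.0146 to 1 over the alternatives, the call being lost without siz1-3 control replicate 1 or 2 and without dehydrated siz1-3 replicate 1 or 3, at adjusted p of 0.138, 0.0923, 0.0514 and 0.135).

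AT2G38240 (JOX4) read 40.0, 104 and 159 in Col-0 control against 2035, 2067 and 2122 once Col-0 was dehydrated. The siz1-3 controls read 50.5, 44.8 and 34.3, and the dehydrated siz1-3 arrays 2578, 2409 and 2322. The control groups overlapped through Col-0 control replicate 1, and each dehydrated siz1-3 array lay above each dehydrated Col-0 array, with a ratio of means of 1.17. The ratio of group means between dehydrated and control plants was 20.5 in Col-0 and 56.4 in siz1-3. The log2 differences were 4.31 ± 0.30 and 5.38 ± 0.30, ranked 48 and 20 from the highest. The genotypes differed by −0.84 ± 0.30 in control and by 0.23 ± 0.30 after dehydration, and the response of siz1-3 minus that of Col-0 was 1.07 ± 0.42. The control plants, in which AT2G38240 was lower in siz1-3, made up the larger share of that difference. Without Col-0 control replicate 1, the lowest of its group, the response in Col-0 was 3.85, the genotype difference in control −1.30 and the difference of the responses 1.53. Without replicate 3, the highest, these were 4.67, −0.48 and 0.71.

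JOX4 has 3 relatives that also oxidise jasmonic acid, and all had probe sets of their own. JOX2 (AT5G05600) gave 417, 908 and 651 in Col-0 control, 5235, 5422 and 5219 in dehydrated Col-0, 135, 353 and 289 in siz1-3 control and 4302, 4537 and 4585 in dehydrated siz1-3. Its log2 fold change by dehydration was 3.04 ± 0.30 in Col-0 (adjusted p = 4.7e-06) and 4.12 ± 0.30 in siz1-3 (adjusted p = 2.49e-07). JOX3 (AT3G55970, also JRG21) gave 61.0, 217 and 93.9 in Col-0 control, 2063, 1553 and 2708 in dehydrated Col-0, 49.7, 88.4 and 91.1 in siz1-3 control and 1661, 2137 and 2255 in dehydrated siz1-3. Its log2 fold change was 4.05 ± 0.35 in Col-0 (adjusted p = 1.33e-06) and 4.48 ± 0.35 in siz1-3 (adjusted p = 4.19e-07). JOX1 (AT3G11180) stayed at 24.5 or below on every array and was not called in any comparison by limma, nor did it reach an unadjusted p of 0.05 in any (0 of 5). JOX2 and JOX3 thus rose after dehydration in both genotypes, as AT2G38240 was high there.

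In control plants JOX2 was lower in siz1-3 than in Col-0, by −1.32 ± 0.30 on the log2 scale (adjusted p = 0.00866, and 0.00191 to 0.0582 over the alternatives, the highest when only those 2 groups entered the fit). JOX3 differed by −0.47 ± 0.35 (adjusted p = 0.425). After dehydration the differences were −0.24 ± 0.30 for JOX2 (adjusted p = 0.608) and −0.04 ± 0.35 for JOX3 (adjusted p = 0.951). The difference of the dehydration responses, 1.08 ± 0.43 for JOX2 (adjusted p = 0.149) and 0.44 ± 0.49 for JOX3 (adjusted p = 0.663), did not pass the test for either. Col-0 control replicate 1 was the lowest array of its group for JOX2, JOX3, JMT and AT2G38240 alike, which was noticed after the values were seen.

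**Figure D2:**
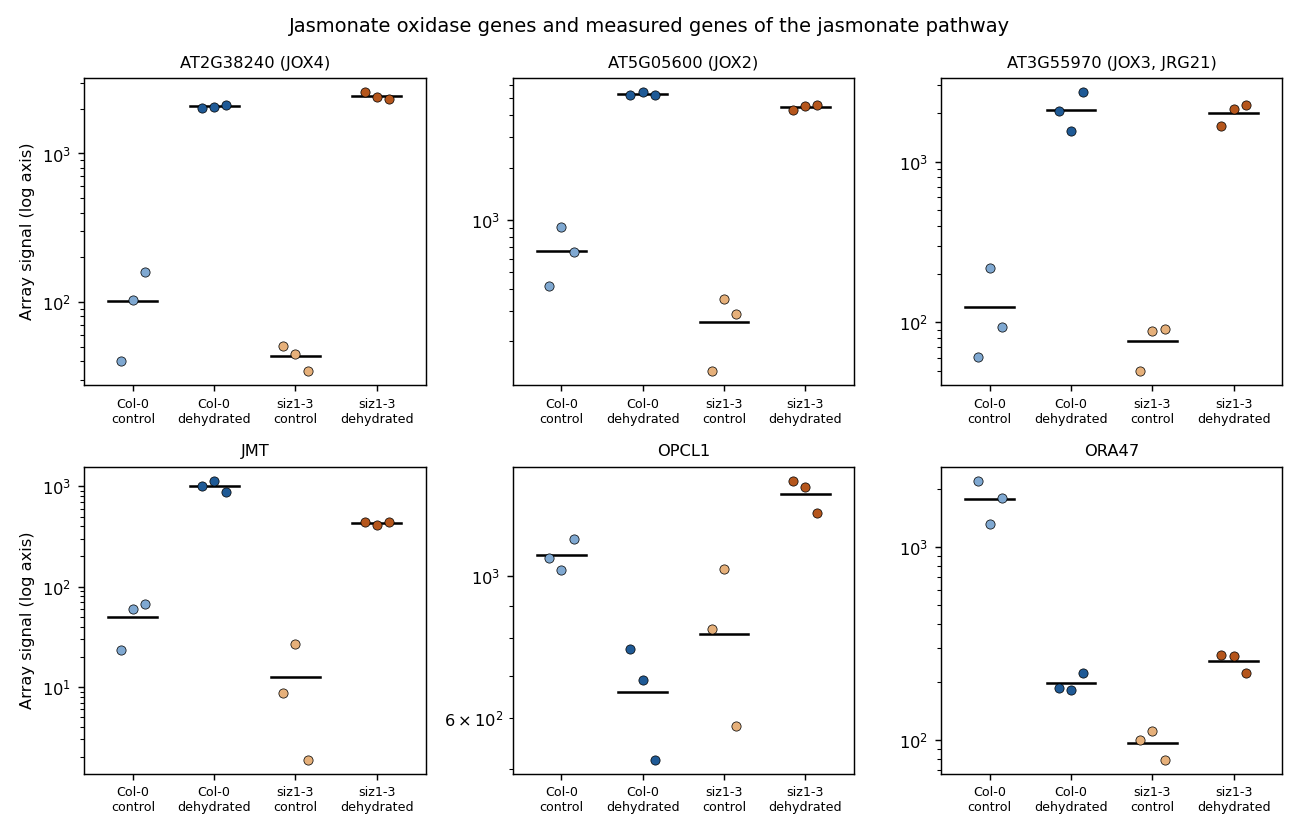
Array signal on a log axis, with its own range in each panel, of AT2G38240, JOX2, JOX3 and 3 further measured jasmonate genes by group; points are the 3 arrays and bars are group means. The oxidase genes and JMT were high in all dehydrated arrays, whereas ORA47 was high only in the Col-0 control arrays, at 1323 to 2196.

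Beyond the oxidases, 49 genes of jasmonate synthesis, turnover, signalling and response were listed, and 8 had a probe set of their own. After dehydration in Col-0, 2 of the 8 rose and 3 fell, or 25% and 37.5%, where 13.5% of all probe sets were called higher and 23.5% lower. In siz1-3, 4 rose and 1 fell, or 50% and 12.5%, beside 15.3% and 31.8%. The median log2 fold change of the 8 genes was −0.52 in Col-0 and 0.58 in siz1-3, beside −0.10 and −0.16 over all probe sets. JMT (AT1G19640), which methylates jasmonic acid, gave 23.5, 59.3 and 67.4 in Col-0 control, 1017, 1130 and 881 in dehydrated Col-0, 8.79, 26.7 and 1.88 in siz1-3 control and 437, 416 and 438 in dehydrated siz1-3. It rose by 4.02 ± 0.31 in Col-0 (adjusted p = 4.23e-07) and by 4.07 ± 0.31 in siz1-3 (adjusted p = 3.06e-07). The ratio of group means was 20.2 in Col-0 and 34.6 in siz1-3. The siz1-3 control signal of JMT could not be told from background, so the size of that rise depends on how low signals were treated. After dehydration JMT was lower in siz1-3, by −1.19 ± 0.31 (adjusted p = 0.00996, and 0.000444 to 0.224 over the alternatives, the highest with log2(signal + 1)), whereas the genotype difference of AT2G38240 there was 0.23 ± 0.30.

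ORA47 and OPCL1 moved against AT2G38240 in Col-0 and with it in siz1-3. ORA47 (AT1G74930), a transcription factor that activates jasmonate synthesis genes, gave 2196, 1323 and 1797 in Col-0 control and 185, 182 and 223 in dehydrated Col-0. It gave 99.3, 111 and 78.8 in siz1-3 control and 276, 272 and 221 in dehydrated siz1-3. It fell by 3.05 in Col-0 (adjusted p = 5.41e-08) and rose by 1.28 ± 0.18 in siz1-3 (adjusted p = 8.03e-05), and the difference of the responses was 4.33 ± 0.26 (adjusted p = 9.51e-06). OPCL1 (AT1G20510), a ligase that activates jasmonate precursors in the peroxisome, fell by 0.72 in Col-0 (adjusted p = 0.00999, and 0.00287 to 0.0597 over the alternatives, the highest with array medians subtracted). It rose by 0.75 ± 0.19 in siz1-3 (adjusted p = 0.00569), and the difference was 1.47 ± 0.27 (adjusted p = 0.00581). MYC3 rose by 0.67 and 0.60 in Col-0 and siz1-3 (adjusted p = 0.0029 and 0.00465), and MYC4 fell by 0.84 and 1.02 (adjusted p = 0.000618 and 9.3e-05). Both encode transcription factors that jasmonate releases from repression.

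The measured jasmonate response genes were the thionin gene THI2.1 and the defensin genes PDF1.2 and PDF1.2b, and the probe set of PDF1.2b may also bind near-identical defensin transcripts. None of the 3 was called in any comparison by limma (at an unadjusted p below 0.05, 0 in each dehydration comparison, 1 in each genotype comparison and 0 for the difference of the responses), with log2 fold changes from −1.002 to 0.38 in Col-0 and from −0.16 to 0.56 in siz1-3, and the smallest adjusted p by dehydration was 0.132, for PDF1.2b in Col-0. Without dehydrated Col-0 replicate 3, PDF1.2 (AT5G44420) and PDF1.2b (AT2G26020) were called in Col-0, at adjusted p of 0.0105 and 0.00466. In genotype comparisons of the 8 genes, 2 were lower in siz1-3 control, which were ORA47 and JMT, beside 8.49% of all probe sets called lower. After dehydration OPCL1 was higher and JMT lower, beside 12.4% called higher and 19.1% lower. The JMT call in control (AT1G19640, log2 fold change −1.24 ± 0.31, adjusted p = 0.0135, and 0.00237 to 0.11 over the alternatives) was lost without Col-0 control replicate 2 or 3 (adjusted p = 0.0545 and 0.0604) and without siz1-3 control replicate 3 (adjusted p = 0.0593). AT2G38250, the gene next to AT2G38240, had a low signal and rose by 0.94 ± 0.20 in Col-0 (adjusted p = 0.0024) and 1.35 ± 0.20 in siz1-3 (adjusted p = 0.000113).

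AT3G13610 (F6'H1) read 17.1, 4.77 and 25.7 in Col-0 control and 3.55, 5.59 and 24.1 once Col-0 was dehydrated. The siz1-3 controls read 336, 219 and 387, and the dehydrated siz1-3 arrays 1201, 1131 and 1187. The Col-0 groups overlapped at a signal that could not be told from background, all siz1-3 arrays lay above all Col-0 arrays, and the siz1-3 groups did not overlap. Within siz1-3 the dehydrated mean was 3.74 times the control mean. On the log2(signal + 16) scale, the differences between genotypes were 3.39 ± 0.30 in control and 5.53 ± 0.30 after dehydration, ranked 50 and 3 from the highest on that scale. They rest on a Col-0 signal that could not be told from background, so their size depends on how low signals were treated. With log2(signal + 1) the differences of AT3G13610 were 4.44 and 7.01, and with signals below 32 set to 32 they were 3.25 and 5.20. The dehydration differences were −0.25 ± 0.30 in Col-0 and 1.89 ± 0.30 in siz1-3, and the response of siz1-3 minus that of Col-0 was 2.14 ± 0.42.

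**Figure D3:**
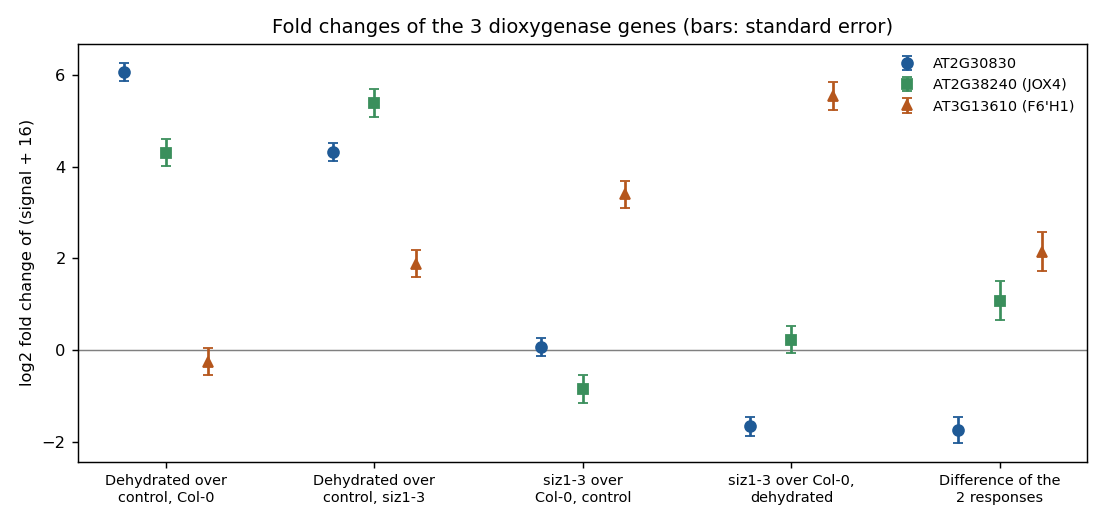
Log2 fold changes on the log2(signal + 16) scale for AT2G30830, AT2G38240 and AT3G13610 in the 4 comparisons between groups and in the difference of the dehydration responses, siz1-3 minus Col-0; bars are standard errors from the fit over 12 arrays. The difference of the responses was −1.74 for AT2G30830, 1.07 for AT2G38240 and 2.14 for AT3G13610.

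F6'H2 (AT1G55290), the close relative that catalyses the same reaction, gave at most 31.5 on any array. Its log2 fold changes were 0.06 ± 0.27 in Col-0 (adjusted p = 0.891) and 0.94 ± 0.27 in siz1-3 (adjusted p = 0.0125, and 0.00196 to 1 over the alternatives). It also passed between genotypes after dehydration, with 0.77 ± 0.27 (adjusted p = 0.0487, and 0.0126 to 1 over the alternatives). Both calls were lost with log2(signal + 1) and with signals below 32 set to 32. The genotype call was also lost without Col-0 control replicate 3, dehydrated Col-0 replicate 2 or 3, siz1-3 control replicate 2 or 3, or dehydrated siz1-3 replicate 2 or 3, at adjusted p of 0.0548 to 0.159. Its signal could not be told from background in any group.

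Coumarin synthesis and export, the phenylpropanoid steps before it and iron uptake regulation were listed with 29 genes, of which 8 had a probe set of their own and 3 stayed under a mean of 32 in every group. In siz1-3 control against Col-0, 0 of the 8 were called by limma, where 8.9% of all probe sets were called higher and 8.49% lower. The median log2 fold change was −0.06 beside −0.03 over all probe sets. An unadjusted p below 0.05 was reached by 5 of the 8, and the share of all probe sets at that looser threshold was not counted. After dehydration, where 12.4% of all probe sets were called higher and 19.1% lower, 1 was higher in siz1-3, the dim F6'H2, and 1 was lower, PYK10, which encodes a glucosidase abundant in roots. By dehydration, BGLU42 and COSY rose and S8H fell in Col-0, beside 13.5% of all probe sets called higher and 23.5% lower. In siz1-3, BGLU42 and F6'H2 rose and S8H and PYK10 fell, beside 15.3% and 31.8%. The difference of the responses was called for COSY (AT1G28680, −0.58 ± 0.16, adjusted p = 0.0415, and 0.0148 to 0.115 over the alternatives) and for none of the other 7, and the COSY call was lost when any 1 of the 12 arrays was left out, at adjusted p of 0.0508 to 0.0962. Over all probe sets, 3.84% were called higher and 4.96% lower for this difference by adjusted p. At an unadjusted p below 0.05, 3 of the 8 genes would have passed, and the share of all probe sets at that threshold was not counted.

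BGLU42 (AT5G36890), a glucosidase that releases coumarins from their glucosides, gave 311, 317 and 329 in Col-0 control and 544, 471 and 557 after dehydration, and 413, 352 and 423 and then 626, 610 and 566 in siz1-3. It rose by 0.68 ± 0.11 in Col-0 (adjusted p = 0.000356) and 0.58 ± 0.11 in siz1-3 (adjusted p = 0.000886), and the genotypes differed by 0.29 ± 0.11 in control (adjusted p = 0.102) and 0.19 ± 0.11 after dehydration (adjusted p = 0.23). COSY, which closes the coumarin ring after F6'H1 has acted, rose by 0.43 ± 0.11 in Col-0 (adjusted p = 0.009) and gave −0.15 ± 0.11 in siz1-3 (adjusted p = 0.306). S8H (AT3G12900), another dioxygenase of the family, converts scopoletin to fraxetin and gave at most 33.9 on any array. It fell by 0.78 in Col-0 (adjusted p = 0.00862, and 0.000839 to 0.362 over the alternatives, the highest with signals below 32 set to 32) and by 0.55 in siz1-3 (adjusted p = 0.0425, and 0.0092 to 1 over the alternatives). The siz1-3 call was lost without Col-0 control replicate 3 or any 1 of the 6 siz1-3 arrays, at adjusted p of 0.0542 to 0.15. HCT, a step of phenylpropanoid supply, and bHLH121, a regulator of iron uptake, were not called in any of the 5 comparisons, and 0 to 1 of these 2 had an unadjusted p below 0.05 in each. Over the 19 alternatives, HCT (AT5G48930) was called by dehydration in 6 for siz1-3 (adjusted p of 0.00134 to 0.182) and in 2 for Col-0 (0.0176 to 0.44), and between dehydrated genotypes in 1 (0.0468 to 0.483). bHLH121 (AT3G19860) was called by dehydration in siz1-3 in 1 (adjusted p of 0.0335 to 0.411) and between dehydrated genotypes in 2 (0.0225 to 0.273). Among the 8 genes, log2 fold changes between genotypes ran from −0.48 to 0.29 in control and from −0.96 to 0.77 after dehydration. AT3G13610, which was chosen for its large differences, had 3.39 and 5.53.

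F6'H1 is known mainly from roots, so markers of roots, green leaves and guard cells were read from lists of 12, 12 and 5 genes, with 3 genes measured in each. The summed signal of the root markers PYK10, EXPA18 and EXPA7 was 915 to 992 in Col-0 control, 718 to 1145 in dehydrated Col-0, 649 to 749 in siz1-3 control and 474 to 515 in dehydrated siz1-3. EXPA18 and EXPA7 stayed under a mean of 32 in every group, so the sum was mostly PYK10. The root marker sum was lowest in the group in which AT3G13610 was highest, and that order rests on PYK10. EXPA18 (AT1G62980) gave genotype differences of 0.32 ± 0.19 in control (adjusted p = 0.292) and 0.51 ± 0.19 after dehydration (adjusted p = 0.0572, and 0.0175 to 1 over the alternatives), opposite in sign to PYK10. EXPA7 gave adjusted p of 1 and 0.777. PYK10 (AT3G09260) was lower in dehydrated siz1-3 than in dehydrated Col-0 by −0.96 ± 0.15 (adjusted p = 0.000438). Its fall by dehydration in siz1-3, by 0.46 (adjusted p = 0.0271, and 0.00383 to 0.572 over the alternatives, the highest with array medians subtracted), was lost without siz1-3 control replicate 1 or 3 or dehydrated siz1-3 replicate 1 or 2, at adjusted p of 0.053 to 0.0899. The sum of the leaf markers RCA, LHCB4.1 and LHCB4.2 was 29675 to 30948 and 17795 to 18669 in Col-0 control and dehydrated, and 21886 to 24950 and 12369 to 13401 in siz1-3. The sum of the guard cell lineage markers AT1G22690, FMA and MUTE was 909 to 1046 and 171 to 243 in Col-0, and 677 to 739 and 116 to 167 in siz1-3. AT1G22690 made up most of it in the control groups, at 701 to 914 in Col-0 and 538 to 628 in siz1-3, and MUTE stayed under a mean of 32 in every group, with a log2 fold change of 0.20 ± 0.20 by dehydration in Col-0 (adjusted p = 0.479). In RNA from whole samples, more cells of a type and more RNA per cell cannot be told apart, and the part of these shifts in the 3 genes was not tested.

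Across the 12 arrays, the log2 signals of AT2G30830 and AT2G38240 correlated at r = 0.952, those of AT2G38240 and AT3G13610 at r = 0.137 and those of AT2G30830 and AT3G13610 at r = −0.005. The 12 arrays form 4 groups, so these values describe the group patterns and carry no test. The ranking of the comparisons also differed between the genes. Dehydration in Col-0 gave AT2G30830 its largest fold change, dehydration in siz1-3 gave AT2G38240 its largest, and genotype after dehydration gave AT3G13610 its largest. The comparisons share groups, so they are not independent of each other.

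For each gene, the 5 genes with the most similar log2 signal over the 12 arrays were taken from 8755 other probe sets. Only probe sets with exactly 1 gene in the annotation and a mean of at least 32 in at least 1 group entered. The 5 genes were chosen for their likeness, so their fold changes are a description without a test. AT2G30830 was nearest to AT3G51450, AT1G71080, AT2G39020, AT5G09620 and AT5G47330, with r of 0.990 to 0.992. Of these, AT5G47330 gave 37.3, 55.6 and 28.8 in Col-0 control, 1494, 1350 and 1390 in dehydrated Col-0, 27.4, 25.9 and 26.8 in siz1-3 control and 724, 697 and 669 in dehydrated siz1-3. Its log2 differences by dehydration were 4.68 ± 0.15 and 4.06 ± 0.15, and the genotypes differed by −0.38 ± 0.15 in control. The other 4 had dehydration differences of 1.89 to 2.48 in Col-0, below the 6.06 of AT2G30830, which was chosen for its large response.

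AT2G38240 was nearest to UGT76E11, AT5G59480, AT1G06620, AT4G36010 and AT3G51090, with r of 0.988 to 0.991. UGT76E11 encodes a glycosyltransferase, and AT1G06620 is the dioxygenase described above as a relative of AT2G30830. UGT76E11 gave 76.4, 80.3 and 125 in Col-0 control, 1038, 1028 and 841 in dehydrated Col-0, 54.6, 76.5 and 64.9 in siz1-3 control and 888, 977 and 900 in dehydrated siz1-3. The 5 genes had dehydration differences of 2.21 to 3.42 in Col-0 and of 2.21 to 3.71 in siz1-3.

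AT3G13610 was nearest to CML41, AT3G09405, AT4G39270, AT3G13950 and CML37, with r of 0.985 to 0.992. CML41 and CML37 encode calmodulin-like calcium sensors. CML41 gave 63.1, 76.8 and 93.6 in Col-0 control, 61.8, 68.3 and 84.3 in dehydrated Col-0, 475, 482 and 479 in siz1-3 control and 1300, 1299 and 1296 in dehydrated siz1-3. Its log2 differences between genotypes were 2.41 ± 0.14 in control and 3.92 ± 0.14 after dehydration, against 3.39 and 5.53 for AT3G13610. The dehydration difference of CML41 was −0.10 ± 0.14 in Col-0 and 1.41 ± 0.14 in siz1-3. CML37 gave genotype differences of 2.44 ± 0.24 and 3.54 ± 0.24.

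**Figure D4:**
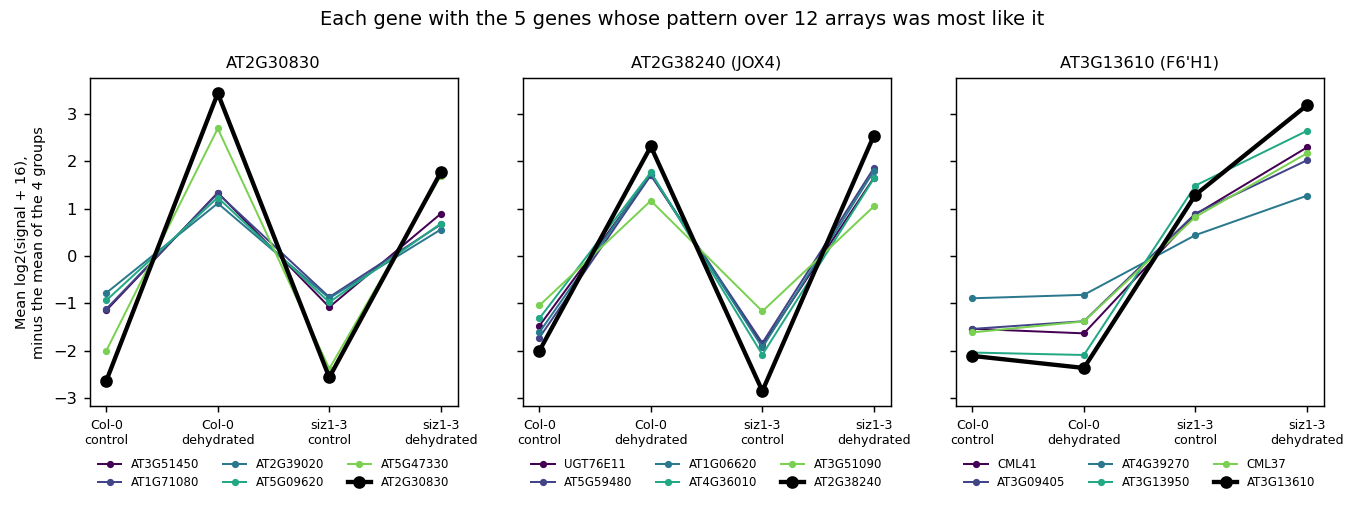
Group means of log2(signal + 16), minus the mean of the 4 groups, for each of the 3 dioxygenase genes (black) and its 5 most similar genes over 12 arrays (colours). The neighbours of AT2G30830 and AT2G38240 peak in the dehydrated groups and those of AT3G13610 in the siz1-3 groups, and each black line spans a wider range than its neighbours. The 3 genes were chosen for large differences, which favours a wider range.

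Of 75 other dioxygenase genes listed, 38 had a probe set of their own and 15 of them stayed under a mean of 32 in every group. After dehydration in Col-0, 8 of the 38 rose and 13 fell, or 21.1% and 34.2%, beside the background of 13.5% and 23.5%. In siz1-3, 10 rose and 11 fell, or 26.3% and 28.9%, beside 15.3% and 31.8%. With array medians subtracted, 9 rose and 12 fell in Col-0 and 13 rose and 8 fell in siz1-3. That scaling also moved the calls over all probe sets from 3081 higher and 5348 lower to 4993 and 3506 in Col-0, and from 3482 and 7225 to 6699 and 4107 in siz1-3. The median log2 fold change of the 38 genes, dim ones included, was −0.07 in Col-0 and −0.07 in siz1-3. Large rises also occurred among the 38, with 4.05 and 4.48 for JOX3, 3.04 and 4.12 for JOX2 and 3.36 and 3.71 for AT1G06620. AT2G30830 and AT2G38240 were chosen for large values, so the median says nothing about how unusual they are.

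In siz1-3 control against Col-0, 6 of the 38 were higher and 5 lower, or 15.8% and 13.2%, beside 8.9% and 8.49% of all probe sets. With log2(signal + 1), 3 were higher and 6 lower in that comparison. After dehydration 9 were higher and 8 lower, or 23.7% and 21.1%, beside 12.4% and 19.1%. The signed log2 fold change by dehydration was higher in siz1-3 for 5 and lower for 2, or 13.2% and 5.26%, beside 3.84% and 4.96% of all probe sets, and leaving out any 1 array gave 3 to 5 and 1 to 2. Of the 5, AT5G43440, AT3G19010 and AT3G60290 fell in both genotypes and fell less in siz1-3: Col-0 dropped by 1.65, 1.81 and 1.89 for these, and siz1-3 dropped by 0.94, 0.94 and 0.86. The difference of the responses was called by limma in only 6 of 18 alternatives for AT5G43440 (adjusted p of 0.0155 to 0.0955) and in 8 of 18 for AT3G60290 (0.00197 to 0.41). AT3G60290, named after its values were seen, read 13.8, 19.2 and 6.7 in dehydrated siz1-3, which could not be told from background. None of the 38 other measured dioxygenase genes had a genotype difference above 2.33 on the log2 scale, the value of AT3G19010 after dehydration. The 5.53 of AT3G13610 is not a fair comparison, since that gene was chosen for its large differences. AT3G19010 gave 846, 758 and 851 in Col-0 control, 257, 200 and 210 in dehydrated Col-0, 2216, 2440 and 2178 in siz1-3 control and 1153, 1184 and 1196 in dehydrated siz1-3. Unlike AT3G13610, it fell after dehydration, by 1.81 in Col-0 (adjusted p = 9.85e-08) and by 0.94 in siz1-3 (adjusted p = 2.43e-05). It was higher in siz1-3 by 1.46 ± 0.12 in control (adjusted p = 2.49e-06) and 2.33 ± 0.12 after dehydration (adjusted p = 5.82e-08).

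**Figure D5:**
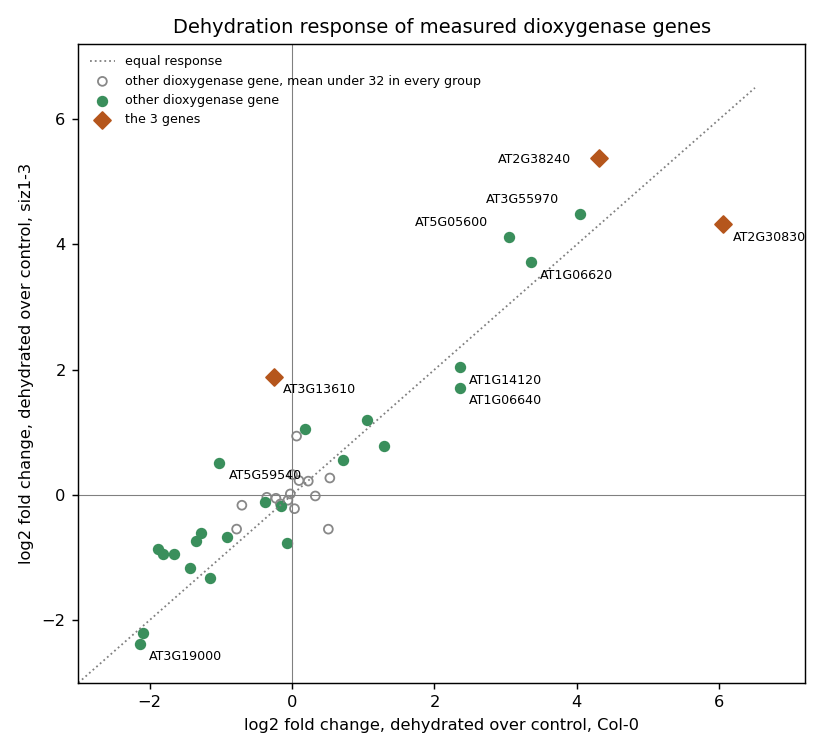
Log2 fold change by dehydration in Col-0 (horizontal) against siz1-3 (vertical) for the 3 dioxygenase genes (diamonds) and 38 other measured dioxygenase genes (circles, open where the mean stayed under 32 in every group); the dotted line marks equal responses. AT2G30830 lies to the right of the line at 6.06 and 4.32, and AT2G38240 and AT3G13610 lie above it at 4.31 and 5.38 and at −0.25 and 1.89.

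AT1G14120 (DAO2) and AT1G14130 (DAO1, named after its values were seen) belong to the enzymes that oxidise auxin. AT1G14120 gave 7.75, 22.3 and 25.0 in Col-0 control, 176, 136 and 156 in dehydrated Col-0, 1.90, 8.92 and 7.05 in siz1-3 control and 50.7, 90.4 and 83.7 in dehydrated siz1-3. It rose by 2.36 ± 0.23 in Col-0 (adjusted p = 3.92e-06) and 2.03 ± 0.23 in siz1-3 (adjusted p = 1.1e-05). As with AT2G30830, its signal after dehydration was lower in siz1-3, by −0.94 ± 0.23 (adjusted p = 0.00748, and 0.0029 to 0.152 over the alternatives, the highest with log2(signal + 1)). AT1G14130 rose by 1.28 and 0.78 (adjusted p = 2.62e-06 and 0.000145). No role is given here for AT3G19000 and AT5G20400. AT3G19000 fell by 2.13 in Col-0 and 2.37 in siz1-3 (adjusted p = 2.15e-08 and 6.61e-09). AT5G20400 fell by 1.28 in Col-0 (adjusted p = 0.00339) and was higher in dehydrated siz1-3 than in dehydrated Col-0 by 2.08 ± 0.29 (adjusted p = 0.000152). Both sizes rest on dehydrated Col-0 signals of 16, 0.95 and 34.2, which could not be told from background. AT5G20400 was also higher in siz1-3 control, at 214, 176 and 148 against 57.5, 59.7 and 54.7 in Col-0 control (adjusted p = 0.00443, and 2.72e-05 to 0.249 over the alternatives). The difference of its responses, 0.68 ± 0.41, was not called (adjusted p = 0.359).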

How the data were processed

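The authors deposited 1 table of linear signal intensity for 22810 probe sets on 12 arrays. How probe cells were summarised was not given in the sources used here. Per the labels, RNA was extracted with TriZOL and labelled with MessageAmp II-Biotin Enhanced. The mean of each array, with 2% of probe sets trimmed at each end, was 250.02 or 250.03, and the span of the array medians, 0.43 on the log2 scale, was below the limit of 0.5 set for further normalization, so none was applied.

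After removal of 64 control probe sets, 22746 probe sets were fitted as log2(signal + 16) with limma 3.58.1 in R 4.3.3 (lmFit and eBayes, 1 mean per group, all 12 arrays, no covariates). P-values were adjusted by the Benjamini-Hochberg method over all 22746. Of the probe sets, 13513 had exactly 1 gene in the annotation, 503 had several and 8730 were not listed there, and 13436 of the first matched TAIR10.1 gene identifiers. A gene with several probe sets was read from the one with the highest mean. The number of arrays limits the precision. The fit was tested on simulated data.

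The 3 genes and all gene lists were chosen with earlier results of these data known. Named genes were the 3 genes, the genes listed as their closest relatives and SIZ1. They also included up to 4 members of each list with the largest absolute log2 fold change, and the 5 most similar genes to each of the 3. Other named genes were picked outside this rule, with their results already known. These were AT5G43450, AT5G43440, AT3G60290, AT1G14130, COSY (AT1G28680), AT2G30820 and AT2G38250. AT1G12010, AT1G03400 and AT2G25450 were picked in the same way. They are not described singly, but they count among the other named genes in the recomputed results below. The reference held no gene descriptions, so the family list was compiled from gene identifiers. Same-numbered arrays deviated together at r between −0.0443 and 0.132 over 18 pairs, so replicate numbers were not taken to pair samples. Alternatives were a pseudocount of 1, a floor of 32, quantile normalization, subtraction of array medians, the upper 60% of probe sets by mean signal, a replicate block, only the 2 groups compared, and each array left out in turn.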

Additional observations from a re-analysis of the deposited data

Results flagged for a closer look

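The dehydration response differed between the genotypes, by the interaction term of limma adjusted over all probe sets, for 6 of the genes named by the rule. In siz1-3 minus Col-0, the difference of the log2 fold changes was 4.33 for ORA47 (AT1G74930, adjusted p = 9.51e-06), 1.53 for AT5G59540 (adjusted p = 0.00014), 1.47 for OPCL1 (AT1G20510, adjusted p = 0.00581) and 0.87 for AT3G19010 (adjusted p = 0.00672). These 4 were called under every alternative, at adjusted p of at most 0.000405, 0.000983, 0.0201 and 0.0261.

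For SIZ1 (AT5G60410) the difference was −0.83 (adjusted p = 0.0478), and it was called in 4 of 18 alternatives, with adjusted p of 0.0175 to 0.153. Among single arrays, it was lost without Col-0 control replicate 3, dehydrated Col-0 replicate 1 or 2, or any siz1-3 array, at adjusted p of 0.0713 to 0.108. For AT1G06640 it was −0.64 (adjusted p = 0.0487), called in 5 of 18 alternatives, with adjusted p of 0.0198 to 0.112. Among single arrays, it was lost without any array other than Col-0 control replicate 2 and siz1-3 control replicate 1, at adjusted p of 0.0681 to 0.107. The 3 dioxygenase genes are not among these because they were chosen for such differences.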

How the results depend on the processing

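Of 282 recomputed values of the 3 dioxygenase genes, 271 moved by less than 1 SD between replicates. Many of the 282 could not move, so this count overstates how stable the values are. The fold changes were fixed with a replicate block, with the brighter probe sets alone and with only the compared groups in the fit. They were also fixed when the array left out belonged to no group of the comparison. The genotype difference of AT2G30830 in control, 0.07, ranged from −0.11 to 0.21, and the response of AT3G13610 in Col-0, −0.25, from −0.63 to 0.00. AT2G30830 responded by 6.76 and 6.36 in Col-0 with log2(signal + 1) and with a floor of 32, beside 6.06, and in siz1-3 by 4.95 and 4.61 with these and by 4.67 with array medians subtracted, beside 4.32. AT2G38240 responded by 5.83 in siz1-3 with the floor, beside 5.38. AT3G13610 differed between genotypes by 4.44 in control and 7.01 after dehydration with log2(signal + 1), beside 3.39 and 5.53. Leaving out 1 array gave AT2G38240 a response in Col-0 of 3.85 to 4.67, a genotype difference in control of −1.30 to −0.48 and a difference of the responses of 0.71 to 1.53. Of 22746 probe sets, 2003 were called for the difference of the responses, and 1270 to 1885 with 1 array left out, the fewest without dehydrated siz1-3 replicate 3 (1270) or 2 (1271). With the replicate number as a block, 8304, 10586, 3741, 6969 and 1783 probe sets were called in the 5 comparisons, beside 8429, 10707, 3955, 7165 and 2003. The fold changes of the 3 genes could not move under this block (6.06 for AT2G30830 in Col-0), because every group held each replicate number. Among other named genes, 195 recomputed results lost their call, 93 gained one and 5198 kept their side of the threshold. Subtracting array medians moved the median of all probe sets by 0.21 in Col-0 and 0.34 in siz1-3. Low signals without detection calls limit every fold change over a control near background.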
